A study of Drosophila melanogaster with 4 samples.

Results

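Aminoacyl-tRNA synthetases join each amino acid to its matching tRNA, the step that sets which amino acid a codon calls for. Animal cells hold one set of these enzymes in the cytoplasm and a further set, also encoded in the nucleus, that is carried into mitochondria, where a small number of proteins of the respiratory chain are made. A few genes serve both compartments; in humans this is known for the glycine and lysine enzymes. The members were chosen by name from the array's gene table, as an amino acid's short name followed by RS, with the suffix -m for a mitochondrial enzyme. The rule found 34 probe sets of 30 genes among 14010 probe sets of 10844 genes. They were 14 mitochondrial enzymes on 15 probe sets and 16 cytoplasmic enzymes on 19, one of which, GluProRS, is a fusion that charges both glutamate and proline tRNA. All 30 symbols were unchanged when brought up to date through Entrez identifiers. The subunits of cytoplasmic phenylalanyl-tRNA synthetase, alpha-PheRS and beta-PheRS, carry a prefix and so lie outside the rule. Cytoplasmic AspRS and MetRS were not analysed here.

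The levels were measured as probe set intensities on 1-colour Affymetrix arrays, in total RNA of 4 samples from cell cultures made from Drosophila melanogaster embryos. Gad1-negative a and b are labelled as the cells left after fluorescence-activated sorting had removed neurons labelled with dsRed1, a red fluorescent protein joined directly to a 2.1 kb promoter of Gad1, the gene of the enzyme that makes GABA; no culture age is given for them. Cha-negative a and b are labelled as the cells left after removal of cholinergic neurons that carried GFP, from cultures 3 to 5 days old; what drove the GFP is not stated. The strain, any link between samples of the same letter, and whether a and b came from different cultures are not stated. The p-values therefore cover no more than the spread among these 4 samples, which may be technical. Each fraction is a mixture of the cells that did not carry the label, so fewer cells of a type and less RNA per cell cannot be told apart.

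Each difference is the mean log2 intensity of Gad1-negative less that of Cha-negative, with a floor of 44.9, the 20th percentile of the deposited values, in place of anything lower. A gene was tested with limma if its mean log2 level reached 7.05, an intensity of 132. The number of arrays limits precision: the median 95% interval of a gene reached 1.51 to either side. The median intensity of all probe sets was 213 and 181 in Gad1-negative a and b, against 248 and 219 in Cha-negative a and b, while the trimmed means were equal. The GAPDH control, a sign of RNA quality, had a 3' to 5' intensity ratio of 23.9 and 38.04 in Gad1-negative a and b, against at least 144 and 185 in Cha-negative a and b. The eIF-4a ratio also separated the groups, at 230 and 77.1 against at least 321 and at least 935 in the same order. Those of actin (82.05 and 106 against 59.4 and 124) and of 18S ribosomal RNA (17.98 and 18.8 against 59.2 and 17.3) overlapped. Among 29 cell type markers, Gad1 was below the floor in every sample. ChAT, which makes acetylcholine and marks the cholinergic neurons, read 590 and 781 in Gad1-negative a and b, against 2000.0 and 594.5 in Cha-negative a and b, so it was not lower in the fraction labelled as depleted of those neurons. The other neuronal markers went different ways. elav overlapped between the groups, Appl (422 and 344 in Gad1-negative, against 842 and 701 in Cha-negative) and the dim brp stood lower in Gad1-negative, and fne (782 and 920 in Gad1-negative, against 515 and 770 in Cha-negative) and the dim nSyb (127 and 296 in Gad1-negative, against 32.4 and 34.3 in Cha-negative) stood higher. Which cells had been removed thus could not be checked from these markers, and the groups rest on the labels.

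Mitochondrial synthetases went both ways between the fractions, 7 higher and 7 lower in Gad1-negative, whereas all 16 cytoplasmic synthetases stood nominally higher there. The mitochondrial count depended on the processing. Of the 14, 9 were higher after quantile normalization, 9 after median centring and 6 with the floor at the 30th percentile. The median difference of the 14 mitochondrial members was 0.032, and that of the 16 cytoplasmic members was 0.51, a 1.42-fold difference in intensity. Over the 6994 genes tested the median was -0.04, and 47.7% had a positive difference. No synthetase passed limma's test at an adjusted p under 0.05, where 0 of 6994 genes passed (0%). An unadjusted p under 0.05 was reached by 345 genes, 4.93% of those tested. Over all 10844 genes, the dim ones included, the difference was positive in 41.6% and negative in 52.8%. The directions below are therefore those of the values and not of calls.

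**Figure D1:**
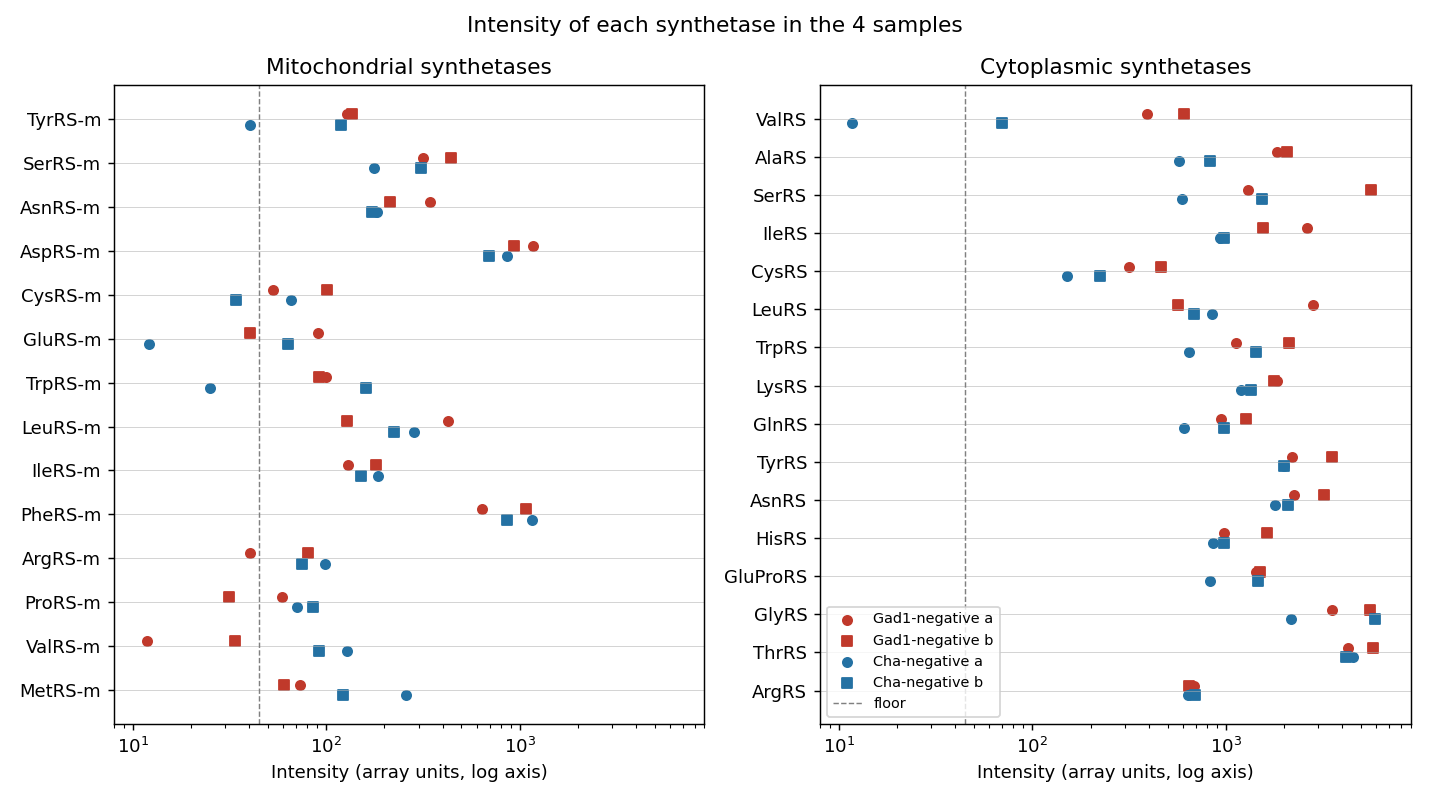
Intensity of each synthetase in the 4 samples, on a log axis in array units, with mitochondrial enzymes on the left and cytoplasmic ones on the right; red points are Gad1-negative, blue points Cha-negative, and the dashed line is the floor of 44.9. Within the cytoplasmic panel Cha-negative a is the leftmost point for 14 of 16 enzymes, and the brightness of different probe sets should not be compared.

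Among the cytoplasmic enzymes, 7 of 16 had both Gad1-negative samples above both Cha-negative samples and none had them below. Over all genes tested, 14.7% stood apart in the higher direction and 20.1% in the lower. For 5 of the 16, ValRS, AlaRS, IleRS, CysRS and LysRS, the difference was larger than the gap between replicates in either group, as it was in the same direction for 8.92% of all genes. An unadjusted p under 0.05 with a higher value was found for ValRS and AlaRS, 2 of the 16, against 2.09% of all genes; ValRS passed the intensity filter only through Gad1-negative.

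ValRS, the valine enzyme, had the largest difference of the members. It read 393.5 and 608.8 in Gad1-negative a and b, against 11.7 and 70.1 in Cha-negative a and b. Both Gad1-negative samples lay well above both Cha-negative samples, and Cha-negative a lay under the floor. The difference of 3.13 ± 0.77 (SE, n = 2 per group; limma adjusted p = 0.783, unadjusted 0.00407) follows the floor, at 3.60 with the floor at the 10th percentile and 2.60 at the 30th. Both Cha-negative values lay under the filter intensity, so ValRS was tested through its Gad1-negative level alone, and its p supports nothing beyond that choice. AlaRS, which charges alanine tRNA, read 1833.7 and 2069.7 in Gad1-negative, against 572.7 and 832.3 in Cha-negative. Here the replicates lay close together on both sides, and the difference was 1.50 ± 0.53, with a 95% interval from 0.27 to 2.72 (limma adjusted p = 0.925). Besides ValRS, AlaRS was the one member whose interval left out 0.

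IleRS, the isoleucine enzyme, read 2624.4 and 1553.6 in Gad1-negative a and b, against 935.7 and 983.0 in Cha-negative a and b. The Cha-negative samples were nearly equal and the Gad1-negative samples spread more, and the difference was 1.07 ± 0.54. CysRS, the cysteine enzyme, read 317.7 and 460.8 in Gad1-negative, against 151.9 and 223.0 in Cha-negative, a difference of 1.06 ± 0.63. Its probe set has the suffix that marks probes shared between transcripts, and its gene model overlaps that of sotv, so its signal may not be its own alone. LysRS, the lysine enzyme, read 1837.3 and 1774.0 in Gad1-negative, against 1191.5 and 1343.3 in Cha-negative. Its difference, 0.51 ± 0.51, lay at the median of the class, and its replicates lay closer together than the groups did.

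SerRS and LeuRS had large differences that rested on 1 sample each. SerRS, the serine enzyme, read 1300.9 and 5599.7 in Gad1-negative a and b, against 594.0 and 1545.3 in Cha-negative a and b. The groups overlapped, since Cha-negative b was above Gad1-negative a, and the difference was 1.49 ± 0.82, or 0.44 without Gad1-negative b. A dimmer SerRS probe set read 337.1 and 200.8 in Gad1-negative, against 85.3 and 303.4 in Cha-negative, a difference of 0.69. LeuRS, the leucine enzyme, read 2834.0 and 566.4 in Gad1-negative, against 851.5 and 687.9 in Cha-negative. Gad1-negative a alone stood out, and the difference of 0.73 ± 0.78 became -0.43 without it. This probe set stood for LeuRS because its mean was the higher one, and its name carries a suffix of another kind. The other LeuRS probe set, which carries the same suffix as that of CysRS, gave a different picture. It read 576.1 and 1021.2 in Gad1-negative, against 141.6 and 237.2 in Cha-negative. There the groups did not overlap and the difference was 2.06, so the LeuRS probe sets disagreed in size and in which Gad1-negative sample was the higher. Which of them is nearer to the level of LeuRS was not tested.

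The remaining cytoplasmic enzymes had differences between 0.0074 and 0.70, with standard errors from 0.52 to 0.67. TrpRS, the tryptophan enzyme, read 1130.7 and 2131.8 in Gad1-negative a and b, against 642.5 and 1426.1 in Cha-negative a and b (0.70 ± 0.63). In both groups sample b was the higher one, and the groups overlapped. TyrRS, the tyrosine enzyme, read 2191.0 and 3522.3 in Gad1-negative, against 1992.6 and 2004.0 in Cha-negative (0.48 ± 0.55), and AsnRS, for asparagine, 2250.3 and 3221.8 against 1800.6 and 2096.8 in the same order (0.47 ± 0.54). Both stood apart between the groups, though by less than the spread of the Gad1-negative samples. A dimmer TyrRS probe set showed hardly any difference, at 0.05.

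GlnRS, for glutamine, read 940.6 and 1276.3 in Gad1-negative a and b, against 605.9 and 978.0 in Cha-negative a and b (0.51 ± 0.55). HisRS, the histidine enzyme, read 981.1 and 1635.4 in Gad1-negative, against 860.1 and 981.1 in Cha-negative (0.46 ± 0.54). GluProRS, the fused enzyme, read 1426.4 and 1494.6 in Gad1-negative, against 825.5 and 1466.7 in Cha-negative (0.41 ± 0.55). In each of these Cha-negative a was the lowest sample, and without it the GluProRS difference was -0.0065. GlyRS, for glycine, read 3517.9 and 5561.2 in Gad1-negative, against 2159.4 and 5917.3 in Cha-negative, and its difference of 0.31 ± 0.67 became -0.42 without Cha-negative a. ThrRS, for threonine, read 4293.0 and 5755.9 in Gad1-negative, against 4535.0 and 4179.7 in Cha-negative (0.19 ± 0.56). ArgRS, the arginine enzyme, was nearly level, at 686.6 and 648.6 in Gad1-negative, against 634.2 and 695.0 in Cha-negative. Its difference was 0.0074 ± 0.52, with an interval from -1.19 to 1.20, which still spans changes of more than 2-fold either way.

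**Figure D2:**
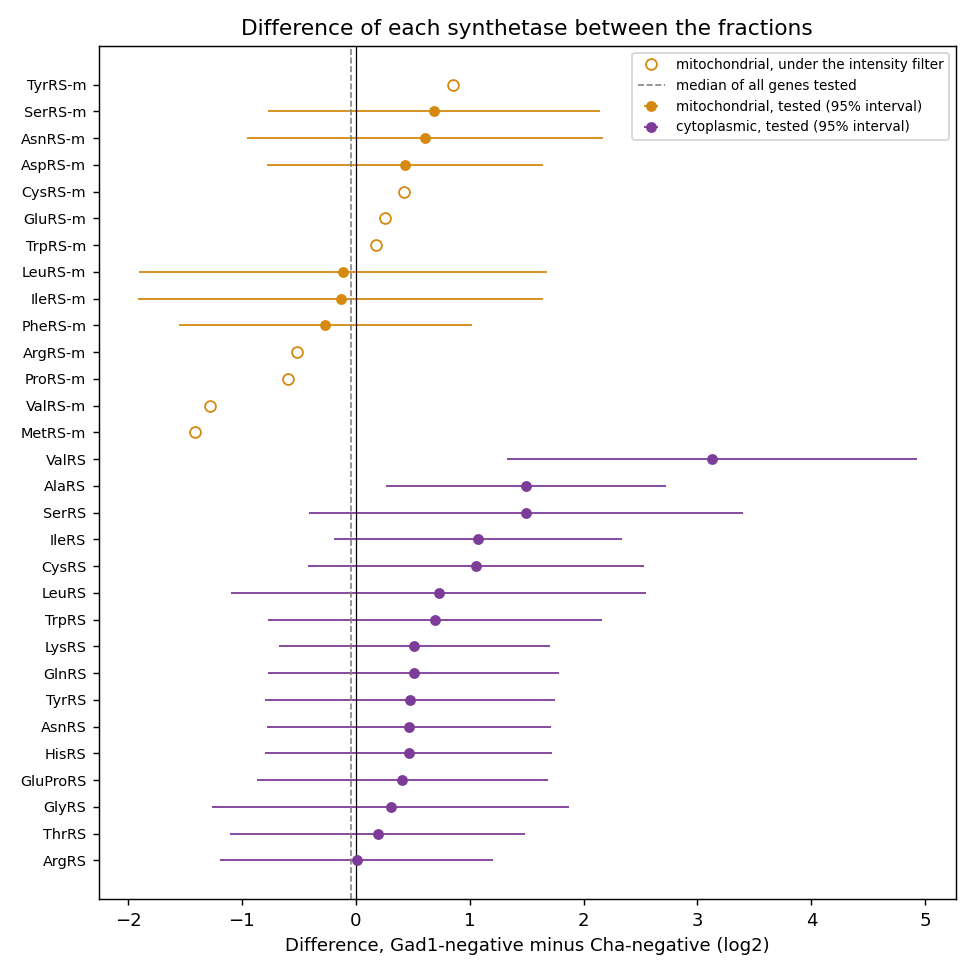
Difference of each synthetase between the fractions (log2, Gad1-negative minus Cha-negative), with 95% limma intervals for the members tested and open points for those under the intensity filter. The 14 mitochondrial members, above, lie on both sides of 0, the 16 cytoplasmic members, below, lie on one side, and the intervals of ValRS and AlaRS leave out 0. ValRS passed the intensity filter only through Gad1-negative, and its Cha-negative a value lay under the floor.

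The cytoplasmic enzymes also ordered the samples. With each gene set against its own mean over the 4 samples, the median deviation of the cytoplasmic members was 0.04 and 0.49 in Gad1-negative a and b, against -0.59 and -0.15 in Cha-negative a and b. Over all genes tested, the median deviations were 0.058 and -0.097 in Gad1-negative a and b, against 0.039 and 0.054 in Cha-negative a and b. For the 6 tested mitochondrial members they were 0.24 and 0.11, against 0.079 and -0.10 in the same order. Those medians also put both Gad1-negative samples above both Cha-negative samples, over a narrower range. All 14 mitochondrial members, dim ones included, gave 0.002 and 0.039 against 0.11 and 0.060. Cha-negative a was the lowest sample for 14 of the 16 cytoplasmic enzymes and was never the highest. Gad1-negative b was the highest for 11. The highest and the lowest cytoplasmic medians were thus those of Gad1-negative b and Cha-negative a. Without Cha-negative a, 13 of the 16 enzymes had a positive difference and the median was 0.40. Without Cha-negative b the 16 were all positive, with a median of 0.84. Of the 16, 14 were positive when Gad1-negative a was left out and 14 when Gad1-negative b was; over the 15 that passed the filter there, the median was 0.73 and 0.29 in that order. All 16 had a positive difference after quantile normalization as well. Median centring raised every difference by the same amount, so it could not turn a positive one.

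**Figure D3:**
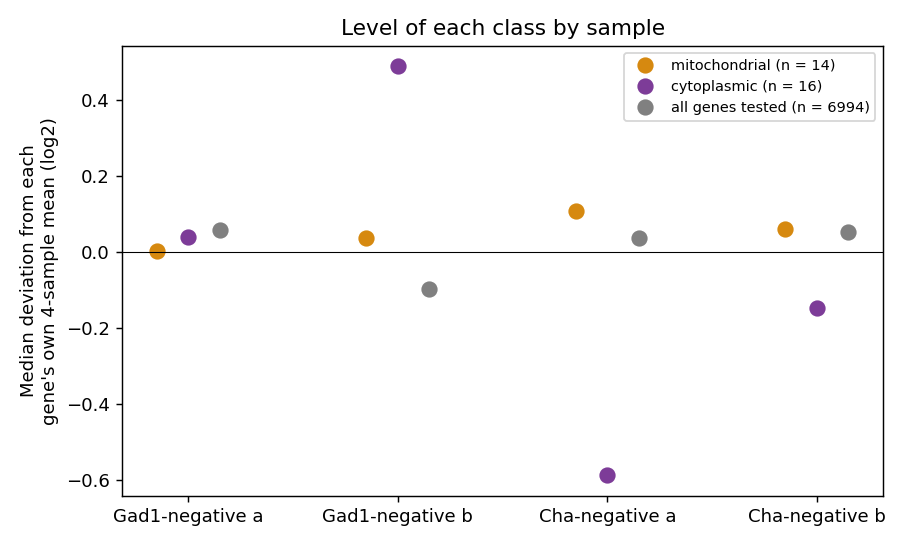
Median deviation of each class from each gene's own mean over the 4 samples, in log2 units, for mitochondrial synthetases, cytoplasmic synthetases and all genes tested. The cytoplasmic medians run from 0.49 in Gad1-negative b to -0.59 in Cha-negative a. The mitochondrial medians, over all 14 members with the dim ones included, lie between 0.002 and 0.11. Those of the 6 tested mitochondrial members, not drawn, run from 0.24 in Gad1-negative a to -0.10 in Cha-negative b.

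Brighter genes as a whole had more positive differences than dim ones, and 12 of the 16 cytoplasmic enzymes lay in the brightest 25% of the genes tested. In that bin the median of all 1749 genes was 0.085 and 55.3% had a positive difference, against a median of -0.24 and 40.8% in the dimmest 25%. The 12 enzymes in the brightest bin had a median of 0.49. After quantile normalization, which gives the 4 arrays the same distribution of values, the median of all genes tested was 0.037 and that of the cytoplasmic enzymes 0.46. Median centring shifted all genes, to a median of 0.20, and the cytoplasmic enzymes to 0.76. Relative to the median of all genes, the cytoplasmic median stood 0.56 higher on the values as deposited and 0.42 higher after quantile normalization; centring leaves this gap as it is.

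**Figure D4:**
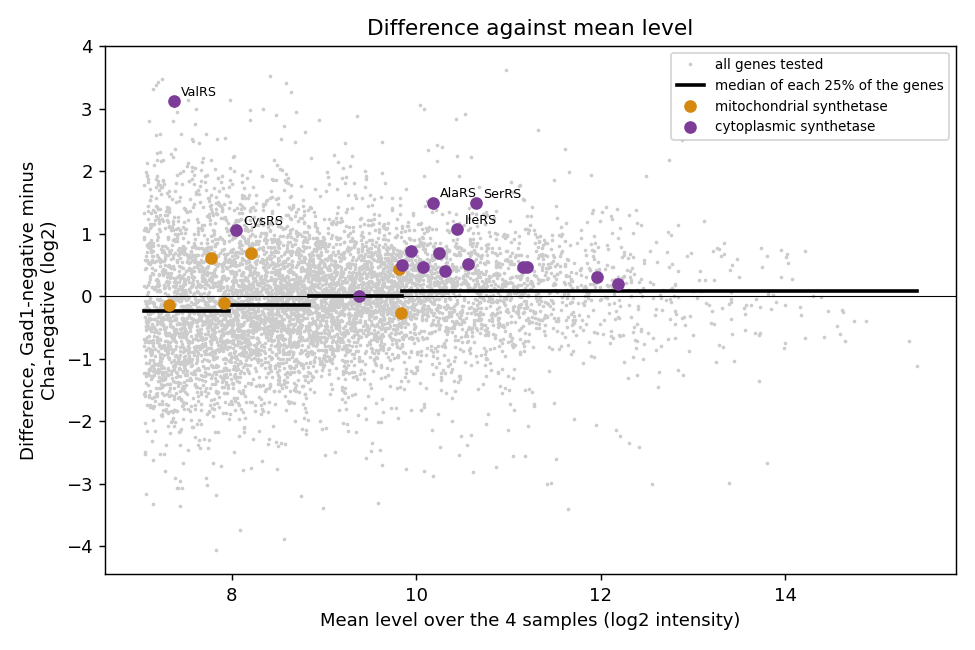
Difference (Gad1-negative minus Cha-negative, log2) against the mean log2 intensity over the 4 samples for the 6994 genes tested, with mitochondrial and cytoplasmic synthetases coloured and the median of each bin of 25% of the genes as a black line. The black lines climb from -0.24 in the dimmest bin to 0.085 in the brightest, and 12 cytoplasmic enzymes lie in the brightest one.

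Synthetases fall into catalytic classes I and II, which are built on unrelated folds and attach the amino acid to different positions of the tRNA's terminal ribose. The 8 cytoplasmic members of class I had a median difference of 0.71 and the 7 of class II a median of 0.47, with GluProRS holding both. The mitochondrial members ran the other way, with a median of -0.11 for the 9 of class I and 0.43 for the 5 of class II. Animal cells also gather some synthetases into a large complex, as described best in mammals. The 6 measured enzymes of that complex, ArgRS, GlnRS, GluProRS, IleRS, LeuRS and LysRS, had a median of 0.51, against 0.59 for the other 10. Both of these splits were made from textbook knowledge, with the values already known, and were not tested.

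Of the 14 mitochondrial enzymes, 6 passed the intensity filter. AspRS-m, the aspartate enzyme of mitochondria, read 1175.7 and 928.5 in Gad1-negative a and b, against 862.0 and 693.7 in Cha-negative a and b. The groups did not overlap, and the difference of 0.43 ± 0.52 was larger than either replicate gap. SerRS-m, for serine, read 316.9 and 443.3 in Gad1-negative, against 176.3 and 307.1 in Cha-negative (0.69 ± 0.63), and AsnRS-m, for asparagine, 343.0 and 213.2 against 183.4 and 171.8 in the same order (0.61 ± 0.67). These too stood apart between the groups, so that 3 of the 6 tested members did so in the higher direction and none in the lower. The shares over all genes tested were 14.7% in the higher direction and 20.1% in the lower. The other tested mitochondrial members overlapped. PheRS-m, the mitochondrial phenylalanine enzyme, read 640.5 and 1078.6 in Gad1-negative, against 1159.6 and 862.8 in Cha-negative (-0.27 ± 0.55). IleRS-m, for isoleucine, read 129.1 and 180.8 in Gad1-negative, against 186.0 and 150.8 in Cha-negative (-0.13 ± 0.77). LeuRS-m, for leucine, read 426.8 and 127.5 in Gad1-negative, against 284.4 and 222.8 in Cha-negative (-0.11 ± 0.77). In LeuRS-m the Gad1-negative samples were the highest and the lowest of the 4. IleRS-m and LeuRS-m turned to 0.15 and 0.15 after quantile normalization and to 0.11 and 0.14 after median centring. The limma adjusted p-values of the 6 ran from 0.925 to 0.989.

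The other 8 mitochondrial enzymes lay under the filter and were not tested, and 7 of them had at least 1 sample under the floor. MetRS-m, for methionine, read 73.2 and 60.6 in Gad1-negative a and b, against 258.5 and 122.1 in Cha-negative a and b, a difference of -1.42. It was lower in both Gad1-negative samples, and a dimmer MetRS-m probe set, at 34.9 and 49.5 against 58.1 and 59.6 in the same order, differed by -0.32. ValRS-m, for valine, read 11.9 and 33.8 in Gad1-negative, both under the floor, against 128.8 and 91.8 in Cha-negative, so with this floor it was at least 2.42-fold lower. The size follows the floor, with a difference of -0.43 with the floor at the 30th percentile. ProRS-m, for proline, read 59.2 and 31.6 in Gad1-negative, against 70.6 and 85.6 in Cha-negative, and differed by -0.59, with Gad1-negative b at the floor. These 3 were the mitochondrial members with both Gad1-negative samples below both Cha-negative samples, 3 of 8 where 19.3% of all genes under the filter stood apart that way.

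TyrRS-m, for tyrosine, was the dim member with both Gad1-negative samples above, at 128.8 and 135.4, against 40.2 and 119.5 in Cha-negative (0.85, with Cha-negative a at the floor). Of the genes under the filter, 7.66% stood apart in that direction. ArgRS-m, for arginine, read 40.2 and 80.9 in Gad1-negative, against 98.9 and 75.4 in Cha-negative, and differed by -0.52. CysRS-m, for cysteine, read 52.8 and 100.8 in Gad1-negative, against 65.5 and 34.4 in Cha-negative (0.43). Both of these overlapped between the groups. GluRS-m, for glutamate, read 90.3 and 40.2 in Gad1-negative, against 12.1 and 63.3 in Cha-negative (0.26), and TrpRS-m, for tryptophan, 99.3 and 91.9 against 25.2 and 159.7 in the same order (0.17). In each of these one Cha-negative sample lay under the floor and the other was within or above the Gad1-negative range. For GluRS-m, Gad1-negative b lay under the floor as well.

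The comparison within an amino acid sets each mitochondrial enzyme beside its cytoplasmic counterpart. Of 11 such pairs, with GluProRS standing against both GluRS-m and ProRS-m, the mitochondrial difference was the smaller in 9. The median of the mitochondrial minus the cytoplasmic difference was -0.63. The valine enzymes stood furthest apart, with -1.28 for ValRS-m and 3.13 for ValRS, both with values at the floor. The isoleucine enzymes followed, at -0.13 for IleRS-m and 1.07 for IleRS. The 2 pairs that went the other way were asparagine, at 0.61 for AsnRS-m and 0.47 for AsnRS, and tyrosine, at 0.85 for TyrRS-m and 0.48 for TyrRS. In 5 pairs the enzymes had opposite signs. In 4 pairs both enzymes were tested, and the mitochondrial one had the smaller difference in 3 of them. The pairs were not tested, since members are not replicates, and the pairing rests on single probe sets whose response may differ.

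**Figure D5:**
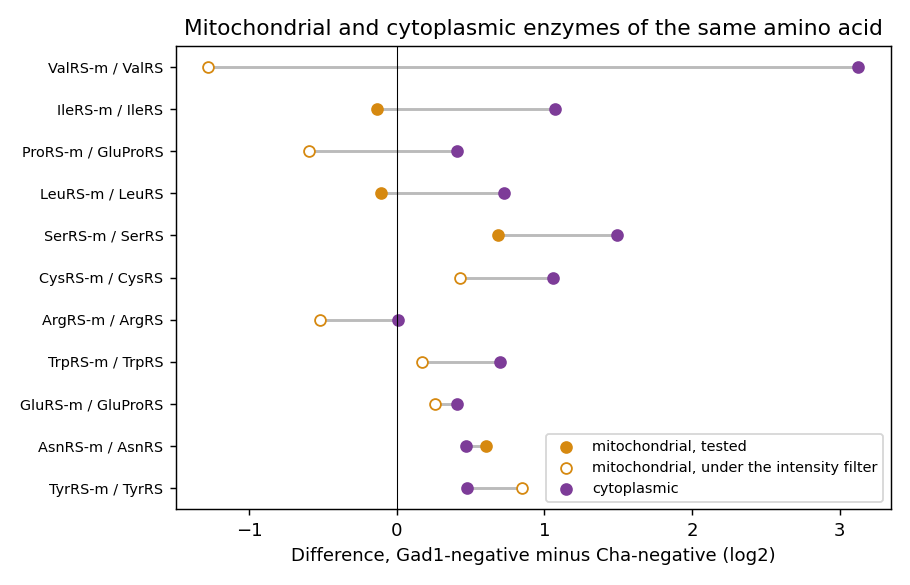
Difference between the fractions (Gad1-negative minus Cha-negative, log2) for the mitochondrial and the cytoplasmic enzyme of the same amino acid, joined by a line, with open points for members under the intensity filter. The mitochondrial point lies to the left in 9 of 11 pairs, and AsnRS and TyrRS are the exceptions.

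The sign of the contrast between the classes depended on 1 sample when only tested members were taken. Over tested members the median was 0.16 for the 6 mitochondrial enzymes and 0.51 for the 16 cytoplasmic ones, a mitochondrial minus cytoplasmic difference of -0.35. Without Gad1-negative b the medians were 0.53 and 0.29 in the same order and the sign turned, to 0.24. Over all 14 and 16 members, dim ones included, the medians were 0.096 and 0.33 without that sample, and the sign stayed. It stayed as well with each other sample left out. Over tested members the class difference was -0.84 without Cha-negative b and -0.18 after quantile normalization. It was -0.058 with the filter at the 60th percentile, over 3 mitochondrial and 14 cytoplasmic enzymes, and -0.48 with no filter. The classes also differed in level, probe sets and gene models. Of the 14 mitochondrial members 8 lay under the filter, while 12 of the 16 cytoplasmic ones lay in the brightest 25% of the genes tested. The part of level in the contrast was not tested. In RefSeq's Release 6 assembly of the fly genome the gene models of 10 of 14 mitochondrial members overlap another protein-coding gene, against 4 of 16 cytoplasmic members and 41.3% of all protein-coding genes. Examples are ArgRS-m with mRpS9, a mitochondrial ribosomal protein gene, IleRS-m with IntS9, a subunit of the Integrator complex, and HisRS with Bx. The 10 overlapping mitochondrial members had a median difference of 0.34, and the other 4 one of -0.19. Among the cytoplasmic members the 4 that overlap had a median of 0.78 and the other 12 one of 0.49. The genome build behind the probes is not known, so coordinates are left out, and the part of overlapping transcripts in these values was not tested.

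The enzyme subunits and partners near the rule were read from the same fit. alpha-PheRS, the catalytic subunit of cytoplasmic phenylalanyl-tRNA synthetase, read 803.4 and 1000.2 in Gad1-negative a and b, against 685.8 and 388.2 in Cha-negative a and b (0.80 ± 0.56). beta-PheRS, its partner subunit, read 585.3 and 755.0 in Gad1-negative, against 299.8 and 621.4 in Cha-negative (0.62 ± 0.59). Both had the sign of the cytoplasmic members, and with them included the median of the 18 cytoplasmic genes was 0.57. A second, dim alpha-PheRS probe set differed by -0.30.

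Of a list of 12 genes that assist charging or tRNA processing, 10 were measured and 7 tested. Of the 7, 6 were positive, where 47.7% of all genes tested were, and the median was 0.33. After adjustment 0 passed limma's test, with 1 at an unadjusted p under 0.05. That gene was AIMP1, a scaffold protein of the synthetase complex, which read 296.5 and 426.5 in Gad1-negative a and b, against 29.4 and 78.9 in Cha-negative a and b. Its difference was 2.58 ± 0.83 (limma adjusted p = 0.925). As with ValRS, Cha-negative a lay under the floor and both Cha-negative values lay under the filter intensity, so AIMP1 was tested through Gad1-negative alone. The other scaffold genes, AIMP2 and AIMP3, differed by 0.33 and 0.07. GatA, whose subunit belongs to the amidotransferase that corrects misacylated glutamine tRNA in mitochondria, differed by -0.12, and GatB, of the same enzyme, lay under the filter at 182.9 and 133.4 in Gad1-negative, against 64.4 and 59.0 in Cha-negative. The tRNA processing gene rswl, whose protein is part of mitochondrial RNase P, was also dim, at 194.7 and 400.9 in Gad1-negative, against 73.7 and 52.8 in Cha-negative. Both of these untested genes stood higher in Gad1-negative, while the 8 untested mitochondrial synthetases divided into 4 higher and 4 lower. Of all 3850 genes under the filter, 1178 had a positive difference (30.6%) and 2070 a negative one.

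Charged tRNA is handed to the elongation factors. All 6 measured of 8 listed had a positive difference, where 47.7% of all genes tested had one. The 3 mitochondrial factors had a median of 0.57 and the 3 cytoplasmic ones a median of 1.02, and none passed limma's test (0 with an unadjusted p under 0.05). Each median is the value of 1 gene. The others were mEFTu1 at 0.59 ± 1.05, mEFTu2 at 0.11, eEF1alpha2 at 1.17 and eEF1delta at 0.19. Of these, mEFTu1 and eEF1delta overlapped between the groups. The subunit eEF1gamma read 3866.4 and 14184.8 in Gad1-negative a and b, against 2272.4 and 5904.2 in Cha-negative a and b (1.02 ± 0.81), with Gad1-negative b far above the rest. Mitochondrial mEFTs, which recycles the mitochondrial factor, read 479.9 and 444.9 in Gad1-negative, against 268.4 and 362.1 in Cha-negative (0.57 ± 0.56). Synthetase genes are known targets of the amino acid stress pathway through ATF4, the product of crc in flies. The 5 measured of 8 genes listed for that pathway had a median of 0.08, and crc itself read 14695.5 and 14519.3 in Gad1-negative, against 11478.8 and 17706.3 in Cha-negative (0.04 ± 0.64). No gene of this list passed limma's test either (0 with an unadjusted p under 0.05), and the crc values overlapped.

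Summed markers of neuroblasts and muscle also lay apart between the groups, on the same side as the cytoplasmic enzymes. The summed intensity of the 3 neuroblast markers, all of them measured, was 5179.9 and 2664.8 in Gad1-negative a and b, against 1788.7 and 1614.1 in Cha-negative a and b. The 4 measured of 5 muscle markers summed to 4984.6 and 8825.5 in Gad1-negative, against 2849.5 and 1508.4 in Cha-negative. The sums rest mostly on mira (4094.3 and 1825.9 in Gad1-negative, against 1102.9 and 1107.9 in Cha-negative) and on the muscle gene Mlc2 (4097.6 and 7432.4 in Gad1-negative, against 2043.9 and 1115.7 in Cha-negative). Of the dimmer markers, wor differed by 1.12 and Prm by 3.15, with Prm under the filter intensity in both Cha-negative samples. The neuroblast marker dpn differed by 0.03 and overlapped between the groups, and so did the muscle markers up, at -0.27, and bt, at 0.51. Among single genes tested, 14.7% stood apart in the higher direction and 20.1% in the lower. No neuroblast or muscle marker lay under the floor in all 4 samples. The sums of the 4 glial and 5 haemocyte markers overlapped between the groups, as did those of the 7 measured neuronal markers. The sum of the 2 gut markers lay apart on the opposite side, at 501.5 and 506.9 in Gad1-negative, against 830.7 and 2636.5 in Cha-negative. Both fat body markers together overlapped, at 384.0 and 206.5 in Gad1-negative, against 502.1 and 219.0 in Cha-negative. The part of these cells and that of RNA quality, where the GAPDH and eIF-4a ratios separated the groups and those of actin and 18S did not, in the synthetase differences was not tested.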

How the data were processed

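The deposited values are intensity, 1 per probe set on a linear scale, for 4 samples. Their trimmed means agree (500.1 with 2% left out at each end), so the arrays were scaled by the authors before deposit; the software is not given in the sources used here. Of 14010 probe sets, 44 were controls, 12443 named 1 gene, 327 several and 1196 none. The probe set with the highest mean stood for a gene. Values under the 20th percentile were set to it, log2 was taken, and genes whose mean lay at or above the 40th percentile of probe sets were tested. Differences between the groups were fitted in R 4.3.3 with limma 3.58.1 (lmFit, eBayes with trend, 2 residual degrees of freedom) and Benjamini-Hochberg adjustment at 0.05 over all 6994 genes. The code was tested on simulated data. Figures were drawn with matplotlib 3.10.9.

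The members and lists were chosen with earlier results of these data known. Every member was named; values of each sample were planned for GluProRS, the 6 tested members furthest on each side and all pairs of one amino acid, and those of the remaining members were added after they were seen. The catalytic classes, the complex, the overlaps of gene models and the bins of mean level were also added then. Alternatives were quantile normalization, median centring, other floors and filters, the mean of probe sets, no trend, the replicate letter as a block and leaving out each sample.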

Additional observations from a re-analysis of the deposited data

How the results depend on the processing

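In every setting limma called 0 of the genes tested at an adjusted p under 0.05. With the replicate block, the letter a or b as a term, 0 genes passed as well, while 602 rather than 345 had an unadjusted p under 0.05; in this balanced design the block leaves every difference as it is. With no intensity filter 718 of 10844 genes, and with the filter at the 60th percentile 213 of 4750, had an unadjusted p under 0.05, and 254 did when Cha-negative a was left out and 530 when Gad1-negative a was. The samples share only a letter; same-lettered deviations correlated at 0.25 across genes, a value that is the same for both letters by construction. With 1 sample left out, the cytoplasmic median of tested members ran from 0.29 to 0.84 and the mitochondrial one from -0.0032 to 0.53. The mitochondrial minus cytoplasmic median of tested members ran from -0.84 to 0.24. The mitochondrial median was 0.29 after quantile normalization, 0.41 after median centring, 0.032 over 14 members with no filter and 0.43 over the 3 left at the 60th percentile. Tested members that changed sign when a sample was left out were LeuRS (from -0.43 to 1.89), GluProRS (-0.0065 to 0.82), GlyRS (-0.42 to 1.03), ThrRS (-0.020 to 0.40), ArgRS (-0.059 to 0.073), LeuRS-m (-0.98 to 0.76), IleRS-m (-0.38 to 0.11) and PheRS-m (-0.64 to 0.11), and untested ones CysRS-m (-0.039 to 0.89), GluRS-m (-0.25 to 0.76) and TrpRS-m (-0.74 to 1.09). LeuRS-m was 0.15 and IleRS-m 0.15 after quantile normalization, and 0.14 and 0.11 after median centring. SerRS, LeuRS, GlyRS, TyrRS-m, TrpRS-m and LeuRS-m moved by a factor of over 1.5 in the ratio of the groups when 1 sample was left out. With ValRS left out, an alternative added after the data were seen, the cytoplasmic median was 0.51. For the dim ProRS-m and ValRS-m the size follows the floor, at -0.85 and -1.96 with the floor at the 10th percentile and -0.044 and -0.43 at the 30th. The cause of these changes was not tested.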
